A study of Homo sapiens with 16 samples.

Results

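The genes described here are 9 genes of the NRF2 antioxidant programme: the aldo-keto reductase genes AKR1C3 and AKR1B10, the quinone reductase gene NQO1, the haem oxygenase gene HMOX1, the glutamate-cysteine ligase genes GCLM and GCLC, the thioredoxin reductase gene TXNRD1, the sulfiredoxin gene SRXN1, and NFE2L2, which encodes NRF2 itself. They were chosen by name, and 8 of the 9 had a probe set with a single gene symbol among the 22411 genes measured. SRXN1 was represented only by a probe set shared with another symbol and has no value here. Expression was measured on 16 whole-transcript microarrays of the A498 line, which was established from a human clear cell kidney carcinoma. All cells carried hairpin RNAs, inducible through a Tet promoter, that target DGAT1 and DGAT2, the acyltransferases of triglyceride synthesis, with 1 hairpin per gene delivered by lentivirus and kept under drug selection. The study does not describe these cells as a single clone. The groups were vehicle in normoxia, vehicle in hypoxia, doxycycline in normoxia and doxycycline in hypoxia, with 4 arrays each. The labels call the vehicle cells wildtype and the doxycycline cells DGAT1/2 knockdown. Per the labels, vehicle or doxycycline was given for 5 days and the oxygen level (0.5% O2 in hypoxia) for 2 days before RNA was taken, and all groups grew in low serum, so a contrast with full serum was not made. The workflow legend of the study places doxycycline before the oxygen exposure instead, so whether these periods overlapped is not settled here. No doxycycline-treated cells without hairpins were among the arrays, so doxycycline itself and the loss of DGAT cannot be told apart.

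NRF2 is a transcription factor that is held at low levels by KEAP1, an adaptor that brings it to a ubiquitin ligase. Oxidants and electrophiles modify KEAP1, NRF2 then accumulates, pairs with small MAF proteins and binds antioxidant response elements near genes for glutathione synthesis, thioredoxin recycling, quinone and carbonyl reduction, and haem breakdown. NRF2 is controlled mainly at the level of its protein, so the RNA of NFE2L2 is not a measure of its activity. Hypoxia, fatty acid overload and stress of the endoplasmic reticulum are each known to alter the redox state of cells, and these arrays give the RNA side of that programme.

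Promoter sequences of 3 of the genes are shown, 2 with a match and AKR1C3, the gene called in hypoxia, without one, because the antioxidant response element is the DNA element through which NRF2 acts. The core TGACNNNGC was the only motif searched, on both strands, in RefSeq windows (GRCh38.p14) of 300 bases from 250 before to 50 after a transcript start. Windows were at hand for 7 of the 9 genes, 10 windows in all, and 3 windows held the core, against 13.3% of 35116 windows of all genes. The window of GCLM held 1 copy, the first TXNRD1 window 2 copies and the second 1 copy. None of the windows of AKR1C3, NQO1, GCLC, NFE2L2 or SRXN1 held these letters, which says nothing about more distant elements. The sequences below give the 250 bases before the start on the gene's own strand, 5′ to 3′, for GCLM (chr1:93909431-93909680, minus strand), for the second TXNRD1 start (chr12:104286782-104287031, plus strand) and, without a match, for AKR1C3 (chr10:5094164-5094413, plus strand). Capitals mark the core, which lies on the opposite strand in both cases and therefore reads as its reverse complement. The capitals begin 34 bases before the start in GCLM, where the core reads TGACTAAGC on its own strand. In TXNRD1 they begin 102 bases before the start, and the core reads TGACAAAGC.
GCLM: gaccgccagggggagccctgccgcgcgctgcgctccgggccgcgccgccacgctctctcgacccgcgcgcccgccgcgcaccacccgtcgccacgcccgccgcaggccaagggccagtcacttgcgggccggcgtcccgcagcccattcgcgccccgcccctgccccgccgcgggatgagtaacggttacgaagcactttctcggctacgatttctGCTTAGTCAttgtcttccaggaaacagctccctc
TXNRD1: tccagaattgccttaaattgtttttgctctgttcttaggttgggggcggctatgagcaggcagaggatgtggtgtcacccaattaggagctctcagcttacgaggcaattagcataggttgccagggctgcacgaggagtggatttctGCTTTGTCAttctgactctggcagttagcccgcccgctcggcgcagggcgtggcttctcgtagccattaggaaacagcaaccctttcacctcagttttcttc
AKR1C3: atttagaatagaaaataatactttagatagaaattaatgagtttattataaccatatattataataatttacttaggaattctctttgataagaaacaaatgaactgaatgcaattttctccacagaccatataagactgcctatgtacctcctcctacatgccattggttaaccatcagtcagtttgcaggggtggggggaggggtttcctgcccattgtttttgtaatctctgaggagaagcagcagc

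Both targeted genes were low on every doxycycline array. DGAT1 lay between 6.24 and 6.99 on the 8 vehicle arrays and between 5.04 and 5.28 on the 8 doxycycline arrays, and DGAT2 between 6.26 and 7.18 and between 5.06 and 5.44 (log2 levels, exact two-sided permutation p = 0.0286 in all 4 contrasts, which no 4 against 4 design can go below). Of 7 measured markers of a kidney carcinoma line, PAX8, VIM, KRT8, KRT18 and CA12 were brighter than 94.7% to 99.7% of genes, PAX2 than 60.4%, and EPCAM, at 42.4%, was dimmer than the median gene. Of 15 leukocyte, endothelial and fibroblast markers, 14 were dimmer than the median gene, and CD68, a lysosomal protein gene, was the exception. The arrays of a group did not scatter at random: after group means were removed, 1 principal axis held 63.3% of the variance that remained. Vehicle hypoxia replicate 4 stood at one end of it (45.8) and doxycycline hypoxia replicate 4 at the other (-31.5), and counts are also given without these 2 arrays. All levels are deposited log2 values, differences carry the standard error of a limma fit on all 16 arrays, and p-values were adjusted by the Benjamini-Hochberg method over all 22411 genes. The arrays are labelled as biological repeats, but how their cultures were kept apart is not described, so the p-values measure the spread between these arrays, which may be technical. In bulk RNA, fewer cells that express a gene and less RNA per cell cannot be told apart.

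The comparisons ask whether DGAT knockdown, hypoxia or both together changed the NRF2 programme. In the fit to all arrays, knockdown alone changed none of the 8 measured genes past the threshold, in either direction, at either oxygen level. That fit shares a single spread per gene over the 4 groups, whose own spreads differed. For HMOX1 the SD was 0.17 in vehicle normoxia, 0.12 in doxycycline normoxia and 0.61 in vehicle hypoxia. For NQO1 these were 0.040, 0.0081 and 0.22. With only the 8 normoxic arrays in the fit, both passed (adjusted p = 0.0038 for HMOX1 and 0.033 for NQO1). In normoxia 9.08% of all genes passed in limma (4.43% higher and 4.65% lower), 1 of the 8 had an unadjusted p under 0.05 (24.9% of all genes did), and the unmoderated test named in the methods passed 2 after adjustment (8.35% of all genes). In hypoxia 4.66% of all genes passed (2.67% higher and 1.99% lower), 3 of the 8 had an unadjusted p under 0.05 (17.2% of all genes), and the unmoderated test passed 0 (0.883% of all genes). In hypoxia 1 of the 8 genes, AKR1C3, fell with vehicle, where 6.91% of all genes passed (2.26% higher and 4.65% lower). With doxycycline hypoxia also lowered AKR1C3 and no other of the 8, where 3.98% of all genes passed (1.02% higher and 2.97% lower). Doxycycline with hypoxia against vehicle with normoxia gave 3 lower genes, AKR1C3, AKR1B10 and NQO1, and no higher one, in a comparison in which 21.3% of all genes passed, 7.67% higher and 13.6% lower. That split depends on scaling, with 1719 higher and 3053 lower genes as deposited but 1969 and 2294 after each array was centred on its median. All 8 genes were brighter than the median gene, whose level was 4.89. With dim genes left out, 2115 of 11507 genes passed for doxycycline in normoxia and 1247 in hypoxia. For hypoxia 1950 passed under vehicle and 1173 under doxycycline, and 4406 passed for both treatments against neither. Beside that background, 3 of 8 for both treatments is not read as an excess. Across the 8 genes the median difference was 0.06 for doxycycline in normoxia, -0.11 for doxycycline in hypoxia, 0.05 for hypoxia with vehicle, -0.11 for hypoxia with doxycycline and 0.04 for both together, against medians between -0.05 and 0.00 over all genes. The 8 genes therefore did not share a direction in any comparison, and the plot of levels by array shows their separate patterns.

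**Figure D1:**
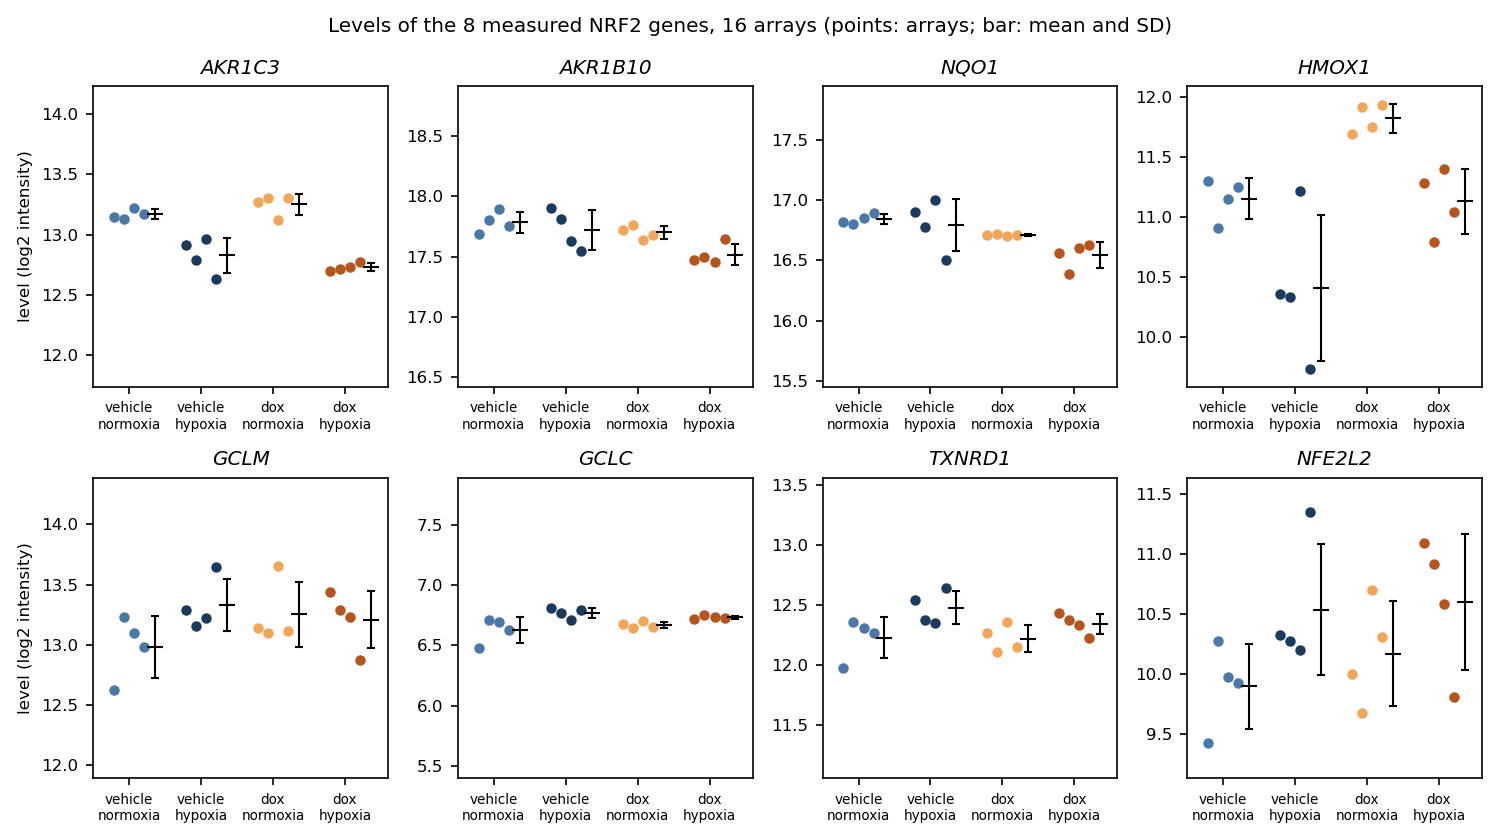
Level of each measured NRF2 gene (log2 intensity, y axis) on the 16 arrays, by group (x axis), with points for arrays and a bar for the mean and SD of 4 arrays. All panels span 2.5 log2 units. AKR1C3 separates by oxygen, HMOX1 is highest in doxycycline normoxia and lowest in vehicle hypoxia, and NFE2L2 and GCLM spread widely within groups.

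AKR1C3 encodes a carbonyl and ketosteroid reductase that also acts on prostaglandins, and among the 8 genes it alone passed the test for hypoxia. The gene lies at chr10:5048781-5107686 (GRCh38.p14, as all positions here). Its level was 13.15, 13.13, 13.22 and 13.17 in vehicle normoxia and 12.92, 12.79, 12.96 and 12.63 in vehicle hypoxia. With doxycycline the normoxic arrays were at 13.27, 13.30, 13.12 and 13.31 and the hypoxic ones at 12.70, 12.71, 12.73 and 12.77. Every hypoxic array was below every normoxic array, whichever treatment it had. The fall in hypoxia was 1.27-fold with vehicle (log2 -0.34 ± 0.07, adjusted p = 0.0114) and 1.44-fold with doxycycline (-0.52 ± 0.07, adjusted p = 0.00122). The group means ran from 13.25 ± 0.086 (SD, n = 4) in doxycycline normoxia through 13.17 ± 0.041 and 12.83 ± 0.15 to 12.73 ± 0.032 in doxycycline hypoxia, and neither neighbouring pair that shares its oxygen level was called different. Doxycycline moved it by 0.08 in normoxia (95% interval -0.07 to 0.24) and by -0.10 in hypoxia (-0.25 to 0.06). Its difference between both treatments together and neither was -0.44 ± 0.07 (adjusted p = 0.000614). The fall with vehicle lost its call when the 8 doxycycline arrays were kept out of the model (adjusted p = 0.128), with adjusted p from 0.000593 to 0.136 over 28 alternatives, whereas the fall with doxycycline kept it in all 28 (1.6e-05 to 0.00971).

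AKR1C1 and AKR1C2 encode close relatives of AKR1C3 that reduce steroids and carbonyls, and both are also known NRF2 targets. AKR1C1 and AKR1C2 are nearly identical to each other and closely similar to AKR1C3, so probes may read more than 1 of them and their values are uncertain. Vehicle cells had AKR1C2 levels of 13.82, 13.80, 13.93 and 13.84 under normoxia and of 13.83, 13.63, 13.87 and 13.45 under hypoxia. Doxycycline cells had levels of 13.69, 13.74, 13.70 and 13.75 under normoxia and of 13.35, 13.19, 13.32 and 13.29 under hypoxia. Its doxycycline hypoxia arrays lay below all 12 others. AKR1C2 fell by 0.41 ± 0.08 with doxycycline in hypoxia (1.33-fold, adjusted p = 0.00709), by 0.43 ± 0.08 with hypoxia under doxycycline (1.35-fold, adjusted p = 0.00682) and by 0.56 ± 0.08 with both (1.47-fold, adjusted p = 0.0002). It differed by -0.13 ± 0.08 with doxycycline in normoxia (adjusted p = 0.353) and by -0.15 ± 0.08 with hypoxia under vehicle (adjusted p = 0.248). AKR1C1 differed by 0.03 ± 0.07 with doxycycline in normoxia (adjusted p = 0.869), by -0.22 ± 0.07 with doxycycline in hypoxia (adjusted p = 0.111) and by -0.10 ± 0.07 with hypoxia under vehicle (adjusted p = 0.406). Its levels lay between 10.46 and 10.56 in doxycycline hypoxia and between 10.57 and 10.90 on the other 12 arrays, and it fell by 0.35 ± 0.07 with hypoxia under doxycycline (adjusted p = 0.0159) and by 0.32 ± 0.07 with both (adjusted p = 0.00657). The call of AKR1C2 with doxycycline in hypoxia was lost with only the arrays compared (adjusted p = 0.124, range 3.48e-05 to 0.174 over the alternatives). That of AKR1C1 with hypoxia under doxycycline was lost without doxycycline normoxia replicate 2 or 4 or doxycycline hypoxia replicate 2 or 3 (adjusted p 0.051 to 0.0593, range 0.000401 to 0.0593 over the alternatives). AKR1C4, another relative, was at -0.46 ± 0.12 with both treatments (adjusted p = 0.0112).

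**Figure D2:**
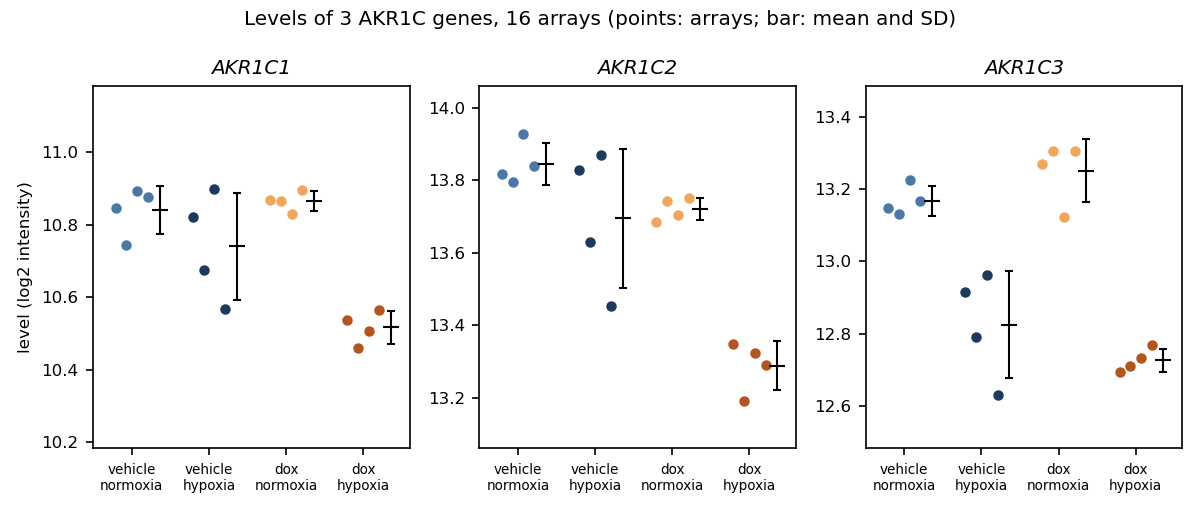
Levels of AKR1C1, AKR1C2 and AKR1C3 (log2 intensity, y axis, 1 log2 unit per panel) on the 16 arrays by group, with points for arrays and a bar for mean and SD. AKR1C3 is low in both hypoxic groups, and AKR1C1 and AKR1C2 are below all other arrays only in doxycycline hypoxia.

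AKR1B10 and NQO1 fell with both treatments against neither. AKR1B10 encodes a reductase of aldehydes and retinal, and NQO1 a quinone reductase that uses NADH or NADPH and is among the most widely used readouts of NRF2. They lie at chr7:134527567-134541412 and chr16:69709401-69726560. AKR1B10 was at 17.69, 17.80, 17.90 and 17.76 in vehicle normoxia and at 17.47, 17.50, 17.45 and 17.65 in doxycycline hypoxia, which did not overlap. Its arrays lay between 17.54 and 17.91 in vehicle hypoxia and between 17.64 and 17.77 in doxycycline normoxia. With both treatments it fell 1.21-fold (log2 -0.27 ± 0.07, adjusted p = 0.0155). NQO1 was at 16.82, 16.80, 16.86 and 16.89 in vehicle normoxia, at 16.71, 16.72, 16.70 and 16.71 in doxycycline normoxia, and at 16.56, 16.38, 16.60 and 16.63 in doxycycline hypoxia. These 3 groups did not overlap, but vehicle hypoxia ran from 16.50 to 17.00 and overlapped all of them. NQO1 fell 1.23-fold with both treatments (log2 -0.30 ± 0.08, adjusted p = 0.0193), a call lost without vehicle normoxia replicate 4 (adjusted p = 0.0535), without doxycycline hypoxia replicate 2 (adjusted p = 0.0679) and after a second quantile normalization (adjusted p = 0.138), with a range of 0.000234 to 0.138 over 28 alternatives. Both genes lie above 16, the log2 of the largest value a 16-bit scanner can give and their fold sizes hold on the deposited scale only.

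Whether doxycycline is called for AKR1B10 and NQO1 in hypoxia depended on the arrays and on the processing. Over all arrays AKR1B10 differed by -0.21 ± 0.07 (adjusted p = 0.13) and NQO1 by -0.25 ± 0.08 (adjusted p = 0.106). Without vehicle hypoxia replicate 4, the lowest array of its group for both genes, AKR1B10 was at -0.27 (adjusted p = 0.0255) and NQO1 at -0.35 (adjusted p = 0.00255), and both passed. With all 16 arrays kept, array weights also called AKR1B10 (adjusted p = 0.000227) and NQO1 (adjusted p = 0.000456), and a second quantile normalization called AKR1B10 (adjusted p = 0.0314). The ranges over the alternatives were 0.000227 to 0.43 for AKR1B10 and 0.000456 to 0.523 for NQO1. In normoxia the differences were -0.08 ± 0.07 (adjusted p = 0.503) and -0.13 ± 0.08 (adjusted p = 0.353). With only the 8 normoxic arrays in the fit NQO1 passed (adjusted p = 0.033, range 0.0189 to 0.512), and its 4 doxycycline arrays had an SD of 0.0081. Hypoxia under doxycycline gave -0.19 ± 0.07 for AKR1B10 (adjusted p = 0.197) and -0.17 ± 0.08 for NQO1 (adjusted p = 0.352), and hypoxia under vehicle gave -0.06 and -0.04. In the fit to all arrays neither gene was called in a comparison of a single factor, and for neither did the interaction pass (adjusted p = 0.956 for both).

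HMOX1 had the widest range of the 8 genes, 2.20 log2 units, and opposite signs for the 2 factors. No difference passed the threshold in the fit to all arrays. Haem oxygenase 1 breaks haem into biliverdin, iron and carbon monoxide, and its gene responds to NRF2, to haem through BACH1 and to several other stresses. The gene lies at chr22:35381096-35394207. HMOX1 was at 11.30, 10.91, 11.15 and 11.25 in vehicle normoxia and at 11.69, 11.91, 11.75 and 11.93 in doxycycline normoxia. In hypoxia it was at 10.36, 10.33, 11.22 and 9.74 with vehicle and at 11.29, 10.80, 11.40 and 11.04 with doxycycline. The normoxic groups did not overlap. Vehicle hypoxia spread widest, from replicate 4 at 9.74 to replicate 3 at 11.22, and neither was flagged by the criterion for far arrays given below. Doxycycline differed from vehicle by 0.67 ± 0.23 in normoxia (1.59-fold, adjusted p = 0.0804) and by 0.72 ± 0.23 in hypoxia (1.65-fold, adjusted p = 0.0924). Hypoxia differed from normoxia by -0.74 ± 0.23 with vehicle (1.67-fold, adjusted p = 0.0638) and by -0.69 ± 0.23 with doxycycline (1.61-fold, adjusted p = 0.119). Doxycycline hypoxia, at 11.13 ± 0.27, was level with vehicle normoxia, at 11.15 ± 0.17, with a difference of -0.02 (95% interval -0.51 to 0.46).

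Whether HMOX1 is called depends on the arrays kept and on the fit. Without vehicle hypoxia replicate 3 all 4 comparisons of a single factor passed, with 0.67 (adjusted p = 0.014), 0.99 (adjusted p = 0.00281), -1.01 (adjusted p = 0.00489) and -0.69 (adjusted p = 0.0201) in the order above, where the ranges over the alternatives were 0.0038 to 0.166, 0.0022 to 0.436, 0.00171 to 0.313 and 0.0112 to 0.308. The normoxic difference between doxycycline and vehicle, which does not contain that array, also passed with only the 8 normoxic arrays in the fit (adjusted p = 0.0038) and without vehicle hypoxia replicate 4 (adjusted p = 0.0258). Without vehicle hypoxia replicate 4, hypoxia under doxycycline, which contains neither array, passed as well (adjusted p = 0.0367). With 1 array left out, doxycycline in hypoxia ran from 0.50 to 0.99 and hypoxia under vehicle from -1.01 to -0.52. HMOX2, the constitutive haem oxygenase gene, was called in none of the comparisons, with differences between groups from -0.12 to 0.04.

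The glutathione synthesis genes and TXNRD1 were called in no comparison in the unweighted fit to all arrays. GCLM and GCLC encode the modifier and catalytic subunits of glutamate-cysteine ligase, which makes the first bond of glutathione. They lie at chr1:93885199-93909430 and chr6:53497341-53545101. With vehicle GCLM was at 12.63, 13.23, 13.10 and 12.98 under normoxia and at 13.29, 13.16, 13.22 and 13.64 under hypoxia. With doxycycline it was at 13.14, 13.10, 13.65 and 13.11 under normoxia and at 13.44, 13.29, 13.23 and 12.88 under hypoxia. All 4 groups overlapped, and the differences ran from -0.12 ± 0.16 for doxycycline in hypoxia to 0.35 ± 0.16 for hypoxia with vehicle (adjusted p = 0.202). GCLC was the steadiest of the 8 genes, between 6.48 and 6.81 on all 16 arrays, with a within-group SD larger than that of only 8.9% of genes. Its hypoxic arrays lay above the normoxic ones under each treatment, from 6.71 to 6.81 against 6.48 to 6.71 with vehicle and from 6.72 to 6.75 against 6.65 to 6.70 with doxycycline. The differences, 0.14 ± 0.05 (adjusted p = 0.123) and 0.06 ± 0.05 (adjusted p = 0.675), did not pass. With array weights the difference with vehicle was 0.15 and passed (adjusted p = 0.0127, range 0.0127 to 0.429 over the alternatives). With doxycycline GCLC differed by 0.04 in normoxia (95% interval -0.07 to 0.16) and by -0.04 in hypoxia (-0.15 to 0.08).

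TXNRD1 encodes the cytosolic thioredoxin reductase, which returns oxidised thioredoxin to its active form with electrons from NADPH. The gene lies at chr12:104215779-104350307. It was at 11.98, 12.35, 12.30 and 12.27 in vehicle normoxia and at 12.54, 12.38, 12.35 and 12.64 in vehicle hypoxia. With doxycycline it was at 12.27, 12.11, 12.36 and 12.15 in normoxia and at 12.43, 12.37, 12.33 and 12.23 in hypoxia. Hypoxia with vehicle gave the largest of its differences, 0.25 ± 0.10 (adjusted p = 0.124), and doxycycline in normoxia the smallest, -0.01 ± 0.10 (95% interval -0.21 to 0.20). With array weights TXNRD1 passed for hypoxia with vehicle, at 0.23 (adjusted p = 0.0192, range 0.0192 to 0.584 over the alternatives). In each of the 5 comparisons of groups its arrays overlapped. TXN, the gene of thioredoxin itself, was called in none of the comparisons, with differences between groups from -0.10 to 0.13.

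NFE2L2 RNA was called in none of the comparisons in the fit to all arrays, and it varied more between arrays of a group than that of 97.3% of genes. The gene lies at chr2:177230303-177264727. With vehicle its level was 9.42, 10.27, 9.97 and 9.92 under normoxia and 10.32, 10.28, 10.20 and 11.34 under hypoxia. With doxycycline it was 9.998, 9.68, 10.70 and 10.30 under normoxia and 11.09, 10.92, 10.58 and 9.81 under hypoxia. In each of the 5 comparisons of groups its arrays overlapped. The difference of both treatments from neither was 0.70 ± 0.31 (1.63-fold, adjusted p = 0.121), and without doxycycline hypoxia replicate 4 it was 0.96 and passed (adjusted p = 0.0284, range 0.00559 to 0.3 over the alternatives), as it did with array weights (adjusted p = 0.0086). Hypoxia differed from normoxia by 0.64 ± 0.31 with vehicle (adjusted p = 0.214) and by 0.43 ± 0.31 with doxycycline (adjusted p = 0.594). With 1 array left out these ran from 0.37 to 0.76 and from 0.27 to 0.69, none of them called. Doxycycline differed from vehicle by 0.27 ± 0.31 in normoxia and by 0.06 ± 0.31 in hypoxia, where the 95% interval ran from -0.60 to 0.72. KEAP1, the repressor of NRF2, was called in none of the comparisons, with differences between -0.26 ± 0.14 and 0.09 ± 0.14 in those of a single factor.

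**Figure D3:**
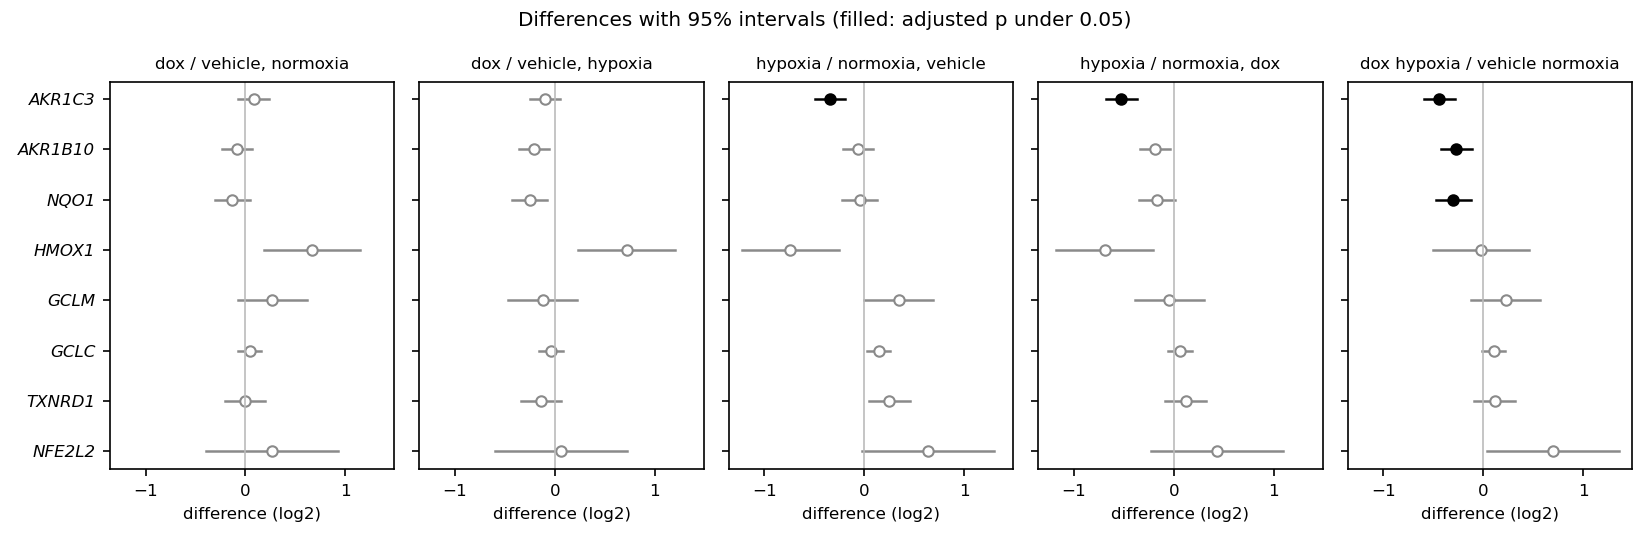
Difference of each measured NRF2 gene (log2, x axis) with its 95% interval in 5 comparisons, 1 panel each, from limma on all 16 arrays. Filled points passed an adjusted p of 0.05: AKR1C3 in 3 panels, and AKR1B10 and NQO1 in the comparison of both treatments with neither.

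Without regard to the model, some genes had groups that did not overlap at all. For doxycycline in normoxia these were NQO1 (lower) and HMOX1 (higher), 2 of 8 genes, where 19.9% of all genes did not overlap. For doxycycline in hypoxia there were 0 of 8, against 9.01% of all genes. For hypoxia with vehicle AKR1C3 was lower and GCLC higher, against 13.8% of all genes. For hypoxia with doxycycline AKR1C3, NQO1 and HMOX1 were lower and GCLC higher, against 12.9%. For both treatments against neither AKR1C3, AKR1B10 and NQO1 were lower and GCLC higher, against 25.8%. The comparisons share arrays, so these counts are not independent of each other.

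The interaction asks whether the response to hypoxia differed with doxycycline, and none of the 8 genes passed. Of all genes 0% passed, and 1026 of 22411 had an unadjusted p under 0.05 in limma, with 0 of the 8 among them. The estimates were -0.18 ± 0.10 for AKR1C3, -0.39 ± 0.23 for GCLM and 0.05 ± 0.32 for HMOX1, with adjusted p-values of 0.956, 0.956 and 0.985. AKR1C1 (-0.25 ± 0.10, unadjusted p = 0.0316) and AKR1C2 (-0.28 ± 0.11, unadjusted p = 0.0238) both had an adjusted p of 0.956. The separation of these 2 genes in doxycycline hypoxia is therefore a description of the arrays, and a difference in response was not shown.

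Within groups, the deviations of GCLM, TXNRD1 and GCLC correlated positively with those of NFE2L2 from array to array. Those of AKR1C3, NQO1, HMOX1 and AKR1B10 correlated negatively with it, some of them weakly. Each gene's deviations were set against the principal axis of all genes described above, which was computed from the same arrays and includes these genes, so the values are a description over 16 arrays. NFE2L2 had a Pearson r of 0.98 with the axis (Spearman's rho 0.98, and 0.98 without the 2 arrays farthest from the median). GCLM had 0.89 (0.88, 0.87), TXNRD1 0.83 (0.87, 0.81) and GCLC 0.52 (0.58, 0.61). AKR1C3 had -0.78 (-0.62, -0.67), NQO1 -0.73 (-0.55, -0.51), HMOX1 -0.61 (-0.35, -0.54) and AKR1B10 -0.47 (-0.33, -0.09). The last of these relations rested on the 2 farthest arrays. With NFE2L2 itself NQO1 had -0.63 (-0.49, -0.40) and HMOX1 -0.47 (-0.30, -0.40). The axis holds 63.3% of the within-group variance of all genes. How many other genes reach such values was not counted, so these relations are not shown to be a trait of the NRF2 genes. Between genes, deviations of NFE2L2 and GCLM had an r of 0.91, GCLM and TXNRD1 0.90, AKR1C3 and NQO1 0.80, and NFE2L2 and AKR1C3 -0.69. NQO1 and HMOX1 had 0.85. For these pairs the 2 arrays farthest from the median of the first-named gene's deviations were then left out, and they differed between pairs. The r was then 0.53 for NQO1 and HMOX1, 0.44 for AKR1C3 and NQO1, and -0.57 for NFE2L2 and AKR1C3. For NFE2L2 and GCLM it was 0.89, and for GCLM and TXNRD1 0.88.

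**Figure D4:**
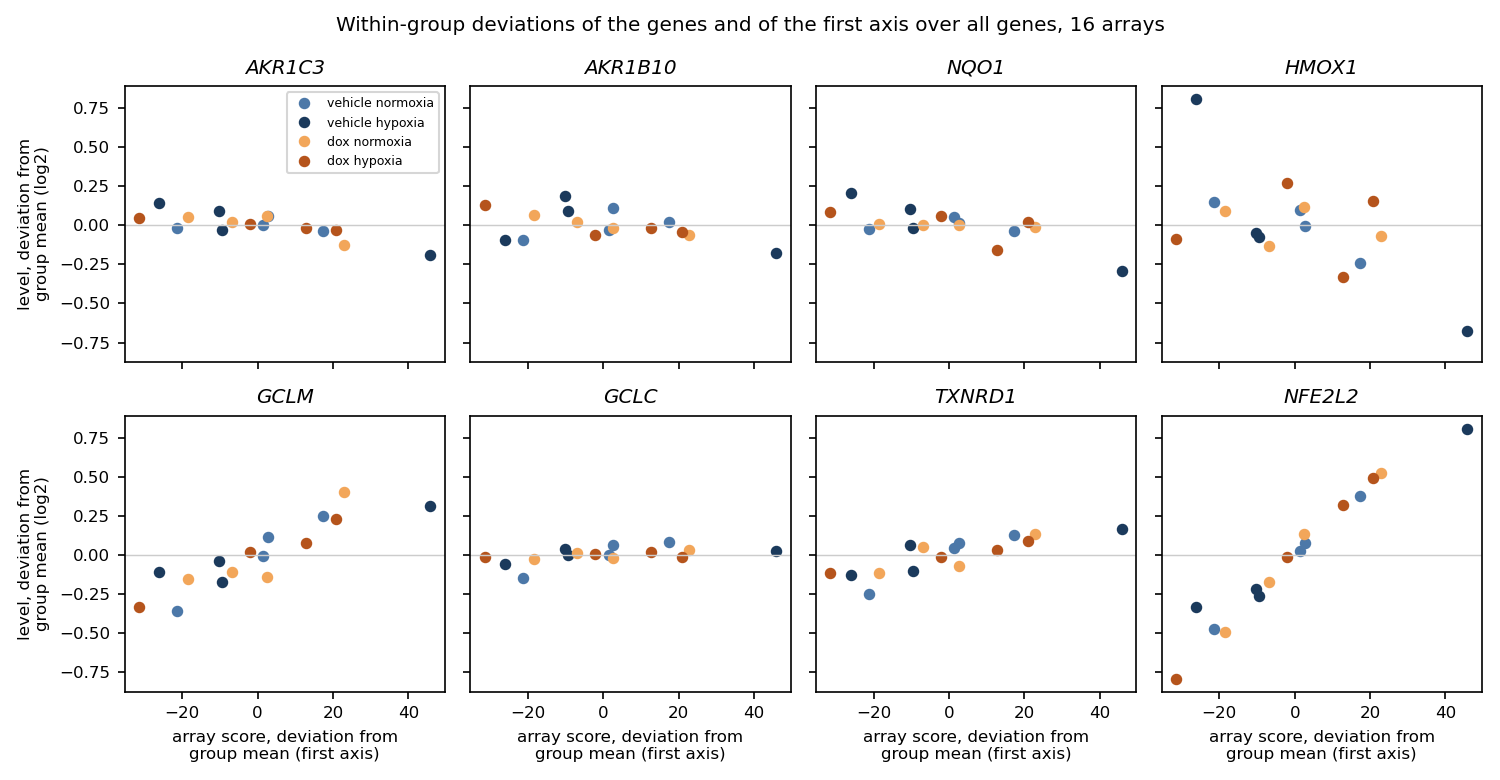
Deviation of each gene from its group mean (log2, y axis) against the deviation of the array's score on the first within-group axis (arbitrary units, x axis), with colours for groups and 16 arrays per panel. NFE2L2, GCLM and TXNRD1 climb along the axis, and vehicle hypoxia replicate 4 is the point farthest right, low for AKR1C3, NQO1 and HMOX1.

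Several calls above turn on the arrays at the ends of this axis, and others turn on other arrays. Vehicle hypoxia replicate 4 had the highest NFE2L2 of all 16 arrays (11.34) and the lowest HMOX1 (9.74) and AKR1C3 (12.63). Without both end arrays of the deviations, 1 of the 8 genes passed for doxycycline in normoxia (HMOX1), where 14.1% of all genes then passed. Neither end array is in that comparison, so the difference stayed at 0.67 and only the spread shared by all groups changed. For doxycycline in hypoxia 2 passed (AKR1B10 and NQO1, both lower), where 10.6% of all genes did. For hypoxia with doxycycline 3 passed (AKR1C3, AKR1B10 and NQO1), where 10.2% did. AKR1C3, AKR1B10, NQO1 and NFE2L2 then passed for both treatments against neither, with 31.1% of all genes, the last with 0.96 (adjusted p = 0.00559). The part of the axis in the differences between groups was not tested.

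The genes whose levels ran most like each member over the 16 arrays were sought among 11204 genes brighter than the median gene, and the r of levels is given with that of deviations in brackets. For NFE2L2 they were SCYL2, PCF11 and KIF21A, each at 0.99 (0.99). For HMOX1 they were SLPI, a secreted protease inhibitor gene, at 0.96 (0.89), CDKN1A, which encodes the cell cycle inhibitor p21, at 0.95 (0.84), and CLU, the clusterin gene, at 0.95 (0.80). For NQO1 the nearest was ATP5MC3, a subunit gene of the mitochondrial ATP synthase, at 0.96 (0.93). For AKR1B10 it was FECH, whose enzyme completes haem synthesis, at 0.92 (0.86), and for AKR1C3 it was MRPL58, a mitochondrial ribosome gene, at 0.94 (0.79). GCLM ran most like LMLN at 0.96 (0.95), TXNRD1 like WHAMMP2 at 0.96 (0.95), and GCLC like NUP153, a nuclear pore gene, at 0.94 (0.93). All points share their arrays, and these values describe likeness only.

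The rest of the antioxidant network was read from 6 further lists of 133 genes, 116 of them measured. With doxycycline in normoxia 12 rose (10.3%, against 4.43% of all genes) and 2 fell (1.72%, against 4.65%). With doxycycline in hypoxia 4 rose (3.45%, against 2.67%) and 5 fell (4.31%, against 1.99%). Hypoxia under vehicle gave 6 higher (5.17%, against 2.26%) and 14 lower genes (12.1%, against 4.65%). Under doxycycline 0 rose, against 1.02% of all genes, and 18 fell (15.5%, against 2.97%). Both treatments against neither gave 14 higher (12.1%, against 7.67%) and 26 lower genes (22.4%, against 13.6%), and the interaction gave 0, as over all genes. These shares describe lists chosen with earlier results known, and no test of the lists was made. The background of all genes includes many dim ones, and the lists were not matched to it by level. With dim genes left out, 1123 of 11507 genes were higher and 992 lower for doxycycline in normoxia, and 667 and 580 in hypoxia. For hypoxia these counts were 723 and 1227 under vehicle and 302 and 871 under doxycycline, and for both treatments 1808 and 2598. Against these brighter genes, the lists' shares lay near or below the background. The exception was the falls with hypoxia under doxycycline (15.5%), which stayed above it. The median differences over the 116 genes were 0.02, -0.01, -0.07, -0.10 and -0.08 in the order of these 5 comparisons, against -0.02, -0.00, -0.05, -0.01 and -0.04 over all genes. By list, the 14 measured genes of NRF2 control gave 1 higher gene with doxycycline in normoxia, 1 higher and 1 lower in hypoxia, 1 higher with hypoxia under vehicle and 0 under doxycycline. The 26 glutathione genes gave 4 higher with doxycycline in normoxia and 2 higher in hypoxia, then 2 higher and 3 lower with hypoxia under vehicle and 4 lower under doxycycline. The 22 thioredoxin and peroxide genes gave 0 and 1 lower with doxycycline, and 3 and 4 lower with hypoxia. The 23 genes of aldo-keto reductases and detoxification gave 2 higher and 1 lower with doxycycline in normoxia, 2 lower in hypoxia, 3 higher and 3 lower with hypoxia under vehicle, and 6 lower under doxycycline. The 15 NADPH supply genes gave 2 higher and 1 lower, 1 lower, 3 lower and 2 lower in the same order, and the 16 haem and iron genes 3 higher, 1 higher, 2 lower and 2 lower. In these lists the calls with hypoxia under doxycycline were all in the lower direction. The genes named below are those that stayed called in each fit with 1 array omitted, unless stated otherwise, and they were picked for that after their values were seen.

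Of these genes, SLC11A2, ABCC2 and UGT2B7 had the largest rises with doxycycline in normoxia. SLC11A2, which encodes the iron transporter DMT1, rose by 0.73 ± 0.07 in normoxia (1.65-fold, adjusted p = 1.85e-05) and by 0.60 ± 0.07 in hypoxia (adjusted p = 0.000143). ABCC2, whose product exports glutathione conjugates, rose by 0.70 ± 0.08 (1.63-fold) and 0.50 ± 0.08 (1.42-fold). In normoxia the glutathione transferase gene GSTA4 rose by 0.50 ± 0.10, the glutaredoxin gene GLRX by 0.51 ± 0.08, and UGT2B7, a glucuronosyltransferase gene, by 0.69 ± 0.11. Of the NADPH-supplying enzymes, ME1 (0.47 ± 0.10) and IDH1 (0.36 ± 0.08) rose in normoxia, while MTHFD1, an enzyme gene of folate metabolism, fell by 0.46 ± 0.11 (adjusted p = 0.0126). AKR7A2, a reductase of aflatoxin dialdehyde and succinic semialdehyde, fell by 0.64 ± 0.08 in normoxia (1.56-fold, adjusted p = 0.000176) and by 0.44 ± 0.08 in hypoxia (adjusted p = 0.00438). BTRC, a ubiquitin ligase adaptor that can bring NRF2 to degradation, rose by 0.41 ± 0.07 in normoxia (adjusted p = 0.00237). In hypoxia BTRC was at 0.32 ± 0.07 (adjusted p = 0.016), a call lost without doxycycline hypoxia replicate 3 (adjusted p = 0.0655, range 0.00467 to 0.131 over the alternatives).

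Of the same genes, TXNIP had the largest fall in hypoxia. It encodes an inhibitor of thioredoxin that also limits glucose uptake, and it fell by 1.29 ± 0.18 with vehicle (2.44-fold, adjusted p = 0.00119) and by 0.93 ± 0.18 with doxycycline (1.91-fold, adjusted p = 0.0101). ALDH3A2, the gene of fatty aldehyde dehydrogenase, fell by 0.49 ± 0.08 and 0.54 ± 0.08 (adjusted p = 0.00365 and 0.00273). SLC48A1, a haem transporter gene, fell by 0.85 ± 0.14 with doxycycline (1.81-fold, adjusted p = 0.00308). With vehicle GSS, which encodes glutathione synthetase, fell by 0.60 ± 0.13 (adjusted p = 0.0132) and the conjugate exporter gene ABCC3 by 0.41 ± 0.09 (adjusted p = 0.0119). AKR7A2 fell by 0.46 ± 0.08 with vehicle (adjusted p = 0.00376). UGT2B7 rose by 0.83 ± 0.11 (1.78-fold, adjusted p = 0.00105) and CREBBP, a coactivator gene, by 0.58 ± 0.09 (adjusted p = 0.00265). With only the 8 vehicle arrays in the fit UGT2B7 kept its call (adjusted p = 0.0479), and TXNIP (0.0504), CREBBP (0.0727), AKR7A2 (0.0768), ALDH3A2 (0.0854), GSS (0.0993) and ABCC3 (0.124) had adjusted p-values above the threshold. SLC7A11, the cystine transporter gene that feeds glutathione synthesis, was at 1.38 ± 0.57 with vehicle (adjusted p = 0.151) and at 0.93 ± 0.57 with doxycycline (adjusted p = 0.496), the widest errors of the genes named.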

How the data were processed

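Total RNA (250 ng per array) was labelled with biotin and hybridised to whole-transcript arrays by the study. The deposited values are on the log2 scale and were made with RMA, which corrects background, normalizes by quantiles and summarises probes by median polish. The submitters' processing notes name RMA and Transcriptome Analysis Console, while tool versions, genome build and dates of scanning are not given in the sources read. Values ran from 1.71 to 19.9 over 70523 probe sets, array medians from 3.91 to 4.11, and 590 probe sets exceeded 16 on every array, so a further transformation is possible and folds hold on the deposited scale only. The number of arrays limits the precision.

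Probe sets with 1 symbol in the platform annotation (23781, against 1543 with several and 45199 with none) were kept, symbols were updated to RefSeq (GRCh38.p14, 306 changed), and the brightest probe set per gene gave 22411 genes. Each measured NRF2 gene had 1 such probe set. Groups came from the titles. limma 3.58.1 in R 4.3.3 fitted 4 group means to 16 arrays, moderated with an intensity trend, two-sided, with Benjamini-Hochberg adjustment over all genes and a threshold of 0.05. The fit was tested on simulated data with noise independent between genes and arrays. That test did not include the within-group axis the real arrays share. The methods' t-test, which the study gives with ANOVA for all its assays, was an alternative.

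The members, the lists and the tests were chosen with earlier results of these data known. The rule for named genes took the 9 members, DGAT1, DGAT2, KEAP1, BACH1, AKR1C1, AKR1C2, AKR1B1, TXN, SLC7A11, FTH1 and HMOX2, up to 3 genes per direction and single-factor comparison with the smallest adjusted p from each of 6 further lists (NRF2 control, glutathione, thioredoxin and peroxide, aldo-keto reductases and detoxification, NADPH supply, haem and iron), or the nearest gene where none passed, and the 3 genes most like each member. BACH1, AKR1B1 and FTH1 had no probe set with 1 symbol. AKR1C4 was named after its values were seen. Alternatives were each array left out, the replicate number as a block, a filter on dim genes, the mean of probe sets, all probe sets, centring, a second quantile normalization, no trend, array weights, only the arrays compared and the t-test, with 2 more chosen after seeing the data that leave out both arrays at the ends of the first axis, by deviation or by score.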

Additional observations from a re-analysis of the deposited data

Results flagged for a closer look

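Of 48 sets of 4 arrays (12 genes in 4 groups), 2 held an array far from the other 3 by Dixon's criterion, and chance marks about 1 in 20 sets. GCLM was at 13.65 on doxycycline normoxia replicate 3, against 13.10 to 13.14 on the other 3 arrays of that group. NFE2L2 was at 11.34 on vehicle hypoxia replicate 4, against 10.20 to 10.32 on the other 3.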

How the results depend on the processing

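DGAT1 and DGAT2 passed as lower in both comparisons of doxycycline under all 28 alternatives. The number of NRF2 genes called was as follows where it moved by over 1.5 times. Brackets give the number called among all 22411 genes. For doxycycline in normoxia it was 0 as fitted (2035), 1 with array weights (4777) and 2 with only the arrays compared (2498). It was 2 by the methods' t-test (1871), and 1 without both end arrays of the deviations (3161) or of the scores (2142). For doxycycline in hypoxia it was 0 as fitted (1045), 1 after a second quantile normalization (1099) and 4 with array weights (5089). It was 2 without both end arrays of the deviations (2383) or of the scores (1850). For hypoxia with vehicle it was 1 as fitted (1549), 2 with dim genes left out (1950 of 11507) and 4 with array weights (4610). It was 0 with only the arrays compared (120) and 0 by the t-test (11). For hypoxia with doxycycline it was 1 as fitted (893), 2 after the quantile normalization (753) and 4 with array weights (3366). It was 2 with only the arrays compared (1113), 3 without the end arrays of the deviations (2287) and 2 without those of the scores (1539). With 1 array left out the count ran from 0 to 1, 0 to 2, 1 to 2 and 1 to 2 in these comparisons.

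Sign changes touched only differences that were not called. Array weights gave 0.059 for AKR1B10 and 0.0094 for NQO1 with hypoxia under vehicle, 0.069 for GCLM with hypoxia under doxycycline and 0.20 for the interaction of NFE2L2. The second quantile normalization gave 0.066 for AKR1B10 and -0.0034 for AKR1C1 with doxycycline in normoxia and 0.020 for the interaction of NQO1. Centring gave 0.0094 for HMOX1 with both treatments and 0.010 for TXNRD1 with doxycycline in normoxia. Without the end arrays of the deviations NQO1 was at 0.054 with hypoxia under vehicle, HMOX1 at 0.0088 with both treatments and -0.14 in the interaction, GCLM at 0.095 with doxycycline in hypoxia and 0.066 with hypoxia under doxycycline, and NFE2L2 at 0.32 in the interaction. Without those of the scores NQO1 was at 0.046 with hypoxia under vehicle, HMOX1 at 0.028 with both and -0.22 in the interaction, GCLC at -0.0061 with doxycycline in normoxia, and TXNRD1 at 0.0073 and NFE2L2 at 0.22 in the interaction. With 1 array left out, the ranges that crossed 0 were -0.11 to 0.054 for NQO1 with hypoxia under vehicle, -0.11 to 0.090 for HMOX1 with both and -0.17 to 0.32 in its interaction, -0.12 to 0.089 for GCLM with hypoxia under doxycycline, -0.0061 to 0.071 for GCLC, -0.089 to 0.037 for TXNRD1 and -0.0069 to 0.043 for AKR1C1 with doxycycline in normoxia, -0.10 to 0.33 for NFE2L2 with doxycycline in hypoxia and -0.37 to 0.060 in its interaction. The cause was not tested.

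Counts over all genes moved more. Array weights called 4777, 5089, 4610, 3366 and 8458 genes in the 5 comparisons (2035, 1045, 1549, 893 and 4772 as fitted), only the arrays compared 285 for doxycycline in hypoxia and 120 for hypoxia with vehicle, and the t-test 198 and 11. Testing all probe sets called 7680 for both treatments. Pairing of the arrays by replicate number was not apparent: 8 of 24 same-numbered pairs correlated above 0.1 (-0.83 to 0.54), and 2 of 16 arrays correlated best with their own number. The deviations correlated here are dominated by the first within-group axis, so this check could miss a pairing. The replicate block changed no call of an NRF2 gene and gave 853 genes for hypoxia with vehicle and 479 with doxycycline. With 1 array left out the 5 counts ran from 1220 to 2885, 586 to 1659, 790 to 1863, 426 to 1395 and 3258 to 6101.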
